A study of Mus musculus with 16 samples.

Results

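The genes described here are *Fabp3*, *Fabp4*, *Fabp5* and *Fabp7*, of the fatty acid binding protein (FABP) family, and *Cd36*, which encodes the fatty acid translocase CD36 of the cell surface. These 5 of the 19505 genes measured were chosen by name, with results of these data already known. By the rule of choice a gene was represented by its transcript cluster (the probes of an annotated gene) with the highest mean over the 16 arrays. Each of the 5 genes had only 1 cluster, so this mean, which lay between 5.97 for *Fabp3* and 9.48 for *Fabp4*, selected nothing.

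RNA from mouse sciatic nerves was hybridized to Clariom S arrays to follow what the loss of Beclin 1 in Schwann cells does to the nerve. Beclin 1, encoded by *Becn1*, is a core subunit of the lipid kinase complex that drives autophagy and endosome traffic. There were 4 groups of 4 arrays, namely *Becn1* cKO nerves at 2 months, control nerves at 2 months, *Becn1* cKO nerves at P10 (10 days after birth) and control nerves at P10. The cKO mice were *Becn1* fl/fl and carried a Cre transgene that acts in the Schwann cell lineage, and the controls, labelled *Becn1* wild-type, were per the methods *Becn1* fl/fl or *Becn1* fl/+ mice, so that every group carried floxed alleles and only the cKO mice carried Cre. Fibroblasts, endothelial cells, adipocytes, macrophages and neurons of the cKO mice keep *Becn1*. The strain background and whether an array held 1 mouse or a pool are not given in the sources used here, and the p-values below measure the spread between these arrays only. In whole nerve, fewer cells of a type and less RNA per cell cannot be told apart.

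All values are log2 robust multiarray averages (RMA), on which a difference of 1 is a 2-fold change. They compare groups within a gene, not the levels of different genes. Means are given ± SD over the 4 arrays of a group, and log2 changes with the standard error (SE) and the Benjamini-Hochberg adjusted p of limma over all genes, a gene being called at an adjusted p under 0.05. *Becn1* itself was lower in cKO nerves, with a log2 change of -0.26 at 2 months (adjusted p = 0.0312) and -0.35 at P10 (adjusted p = 0.0397), calls that ended in most fits without 1 array. Markers of Schwann cells of any stage were present in every array, with list means between 8.54 and 9.16 over 7 genes. Control P10 replicate 4 stood apart: its mean over 18 skeletal muscle genes was 11.28, whereas those of the other arrays of its group ran from 6.69 to 8.98, and several results at P10 are given without it as well.

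Long-chain fatty acids enter cells partly by diffusion and partly through membrane proteins such as CD36, and inside the cell they travel bound to FABPs, small proteins that hold the acid in a barrel of β-strands. Each tissue has its own FABPs: FABP3 prevails in heart and skeletal muscle, FABP4 in adipocytes and also in capillary endothelium and some macrophages, FABP5 in epidermis, macrophages and many other cells, and FABP7 in radial glia, astrocytes and immature glia of the peripheral nerve. The P2 protein of peripheral myelin, encoded by *Pmp2*, belongs to the same family. CD36 is found on adipocytes, capillary endothelium, muscle and macrophages, where it also takes up oxidized lipoproteins.

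Promoter sequences of the RefSeq annotation on GRCm38.p6 matched 3 of the 5 genes (*Fabp3*, *Fabp7* and *Cd36*). Those of *Fabp7* and *Cd36*, the members that differed in opposite directions at both ages, are shown over the 250 bases before the start, *Fabp7* at chr10:57784673-57784922 on the plus strand and *Cd36* at chr5:17835897-17836146 on the minus strand, each written 5′ to 3′. Capitals mark the motif matches described next.
Fabp7: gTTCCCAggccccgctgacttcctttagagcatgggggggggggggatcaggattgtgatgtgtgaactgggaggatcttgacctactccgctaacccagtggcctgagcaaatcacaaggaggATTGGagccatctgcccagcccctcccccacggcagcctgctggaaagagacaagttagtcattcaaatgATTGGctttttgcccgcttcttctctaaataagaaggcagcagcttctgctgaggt
Cd36: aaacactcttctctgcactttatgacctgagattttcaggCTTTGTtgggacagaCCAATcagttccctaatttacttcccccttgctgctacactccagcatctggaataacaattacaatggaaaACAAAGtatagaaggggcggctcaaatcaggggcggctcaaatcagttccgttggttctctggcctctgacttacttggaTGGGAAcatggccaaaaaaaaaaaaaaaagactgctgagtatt

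The motifs were searched on both strands, and none of the matches overlap. The CCAAT box (CCAAT), which 33.8% of the 32851 promoters of the same length hold, was found at 2 places of the *Fabp7* promoter, at -126 to -122 and -56 to -52 from the start and both on the minus strand, and at 1 place of the *Cd36* promoter, at -195 to -191. The SOX motif ACAAAG, held by 16.5% of promoters, was found at -210 to -205 and -123 to -118 of *Cd36* and not in the *Fabp7* window. The core of the RBPJ motif, TGGGAA, held by 21.6%, was found at -249 to -244 of *Fabp7* and at -43 to -38 of *Cd36*. The TATA box (TATAAA, 12.4% of promoters), the octamer ATGCAAAT (1.6%), the E-box CACGTG (6.02%) and the direct repeat of AGGTCA with 1 base between the copies (0.0335%), of the kind that PPAR and RXR bind, had no match in either window.

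At 2 months *Fabp5* and *Fabp7* rose and *Fabp4* and *Cd36* fell, 4 of 5 genes called, where 34.0% of all genes were called (18.5% higher and 15.5% lower). At P10 only *Fabp7* rose, *Fabp4* and *Cd36* fell again, and *Fabp5* and *Fabp3* were not called, so that 3 of 5 genes were called where 12.9% of all genes were (5.48% higher and 7.44% lower). The groups did not overlap for *Fabp5*, *Fabp7* and *Cd36* at 2 months, which held for 33.4% of all genes, and for *Fabp4*, *Fabp7* and *Cd36* at P10, which held for 16.9% of all genes.

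**Figure D1:**
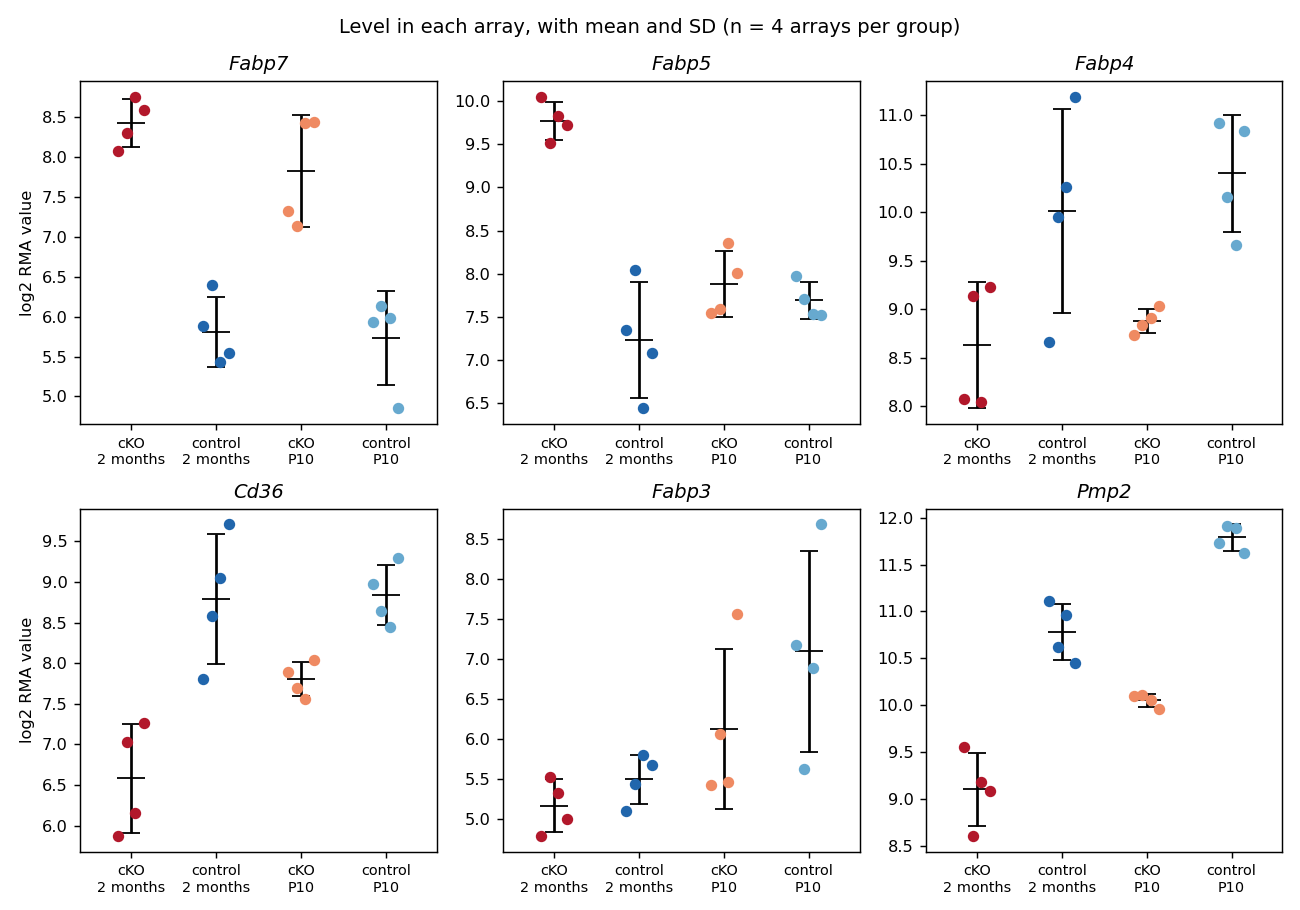
The log2 RMA value of *Fabp7*, *Fabp5*, *Fabp4*, *Cd36*, *Fabp3* and their relative *Pmp2* in each of 16 arrays (points), with the mean and SD of each group of 4 arrays (black bars). *Fabp7* stood above control at both ages (7.14 to 8.76 in cKO arrays, 4.85 to 6.40 in control arrays), whereas *Fabp5* did so only at 2 months (9.51 to 10.05 in cKO arrays, 6.44 to 8.04 in control arrays).

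*Fabp7*, the brain-type FABP of immature glia, was the member with the largest log2 change at 2 months and was higher at both ages. At 2 months its values were 8.08, 8.30, 8.76 and 8.59 in cKO nerves, against 5.88, 6.40, 5.43 and 5.54 in control nerves. Every cKO array lay above every control array, with means of 8.43 ± 0.30 and 5.81 ± 0.44. The log2 change was 2.62 (SE 0.20, adjusted p = 1e-07), a 6.14-fold difference. At P10 the values were 7.32, 7.14, 8.43 and 8.44 in cKO nerves and 5.94, 6.13, 5.99 and 4.85 in control nerves. The groups were again separate, and among the cKO arrays replicates 3 and 4 lay about 1 unit above the other two. The log2 change at P10 was 2.10 (SE 0.32, adjusted p = 0.000384), and it was 1.81 (adjusted p = 0.000292) without control P10 replicate 4, the array with the lowest value. The changes at the 2 ages differed by 0.51 (SE 0.42), which was not called (adjusted p of the interaction = 0.496).

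Markers of cell types that could carry *Fabp7* were measured in the same arrays. Among 7 genes of Schwann cells of any stage, 5 were called higher and 2 lower at 2 months, with list means of 9.10 to 9.16 in cKO and 8.54 to 9.04 in control nerves, and at P10 2 were higher and 1 lower (2 lower without control P10 replicate 4), with list means of 9.06 to 9.15 in cKO and 8.74 to 9.10 in control nerves. Among them *Foxd3*, a transcription factor of the neural crest, rose by 0.59 at 2 months and by 0.87 at P10 on the log2 scale. *Gpr37l1*, a receptor of glia, had log2 changes of 0.92 at 2 months and -0.73 at P10. The lowest change of this list at 2 months was -0.81. Of 12 genes of immature and non-myelinating Schwann cells, 3 rose and 3 fell at each age. Those that rose included *Sox2*, a transcription factor of immature Schwann cells (log2 change 1.31 at 2 months and 1.83 at P10), and *Pou3f1*, which is transiently expressed before myelination (1.58 and 1.29). The lowest change of that list was -1.63 at 2 months and -1.55 at P10. Its median change was -0.08 at 2 months and -0.09 at P10, against -0.02 and 0.00 over all genes. Of all genes 18.5% were called higher and 15.5% lower at 2 months, and 5.48% higher and 7.44% lower at P10. *Fabp7* minus the mean of the Schwann cell list averaged -0.70 in cKO and -3.00 in control nerves at 2 months, and -1.28 in cKO and -3.27 in control nerves at P10, so *Fabp7* moved by over 1 unit more than that list at each age. The mean of a pigment cell list, cells that arise from the neural crest as Schwann cells do, was also higher in cKO nerves at both ages. That mean over 10 genes lay between 7.99 and 8.11 in cKO and 5.52 and 6.96 in control nerves at 2 months, and between 7.92 and 8.12 in cKO and 5.20 and 5.56 in control nerves at P10, with 5 genes higher at each age, 1 lower at 2 months and none lower at P10. The median log2 change of the list was 0.83 at 2 months and 1.59 at P10, with a highest change of 4.59 and of 7.67. *Fabp7* minus the pigment mean was 0.37 ± 0.25 in cKO and -0.55 ± 0.33 in control nerves at 2 months, and -0.19 ± 0.73 in cKO and 0.35 ± 0.71 in control nerves at P10, so *Fabp7* differed by more than that mean at 2 months and by less at P10. The part of these cells in the *Fabp7* difference was not tested.

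*Fabp5*, the epidermal FABP, which is widely expressed and abundant in macrophages, rose at 2 months only. At 2 months its values were 10.05, 9.51, 9.82 and 9.72 in cKO nerves, against 7.35, 8.04, 6.44 and 7.08 in control nerves. All cKO arrays were more than 1 unit above the highest control array, with means of 9.77 ± 0.22 and 7.23 ± 0.67, and the log2 change was 2.55 (SE 0.24, adjusted p = 1.01e-06), a 5.84-fold difference. At P10 the values were 7.55, 7.59, 8.36 and 8.01 in cKO nerves and 7.97, 7.71, 7.53 and 7.52 in control nerves. There the groups overlapped, and the log2 change was 0.19 (SE 0.17, adjusted p = 0.58). The difference between the 2 ages was itself called, with an interaction of 2.35 (SE 0.33, adjusted p = 8.22e-05), where 12.3% of all genes had a called interaction (7.69% positive and 4.59% negative). *Fabp5* was the only member with a called interaction, which was called in every fit without 1 array (2.09 to 2.63).

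Between cKO and control nerves, macrophage genes moved with *Fabp5*. Of 15 measured, 12 were called higher and 1 lower at 2 months, with a median log2 change of 1.55, and 1 was higher at P10, with a median of 0.24. Over all genes 18.5% were called higher and 15.5% lower at 2 months, and 5.48% higher and 7.44% lower at P10. The list mean lay between 9.03 and 9.17 in cKO and 7.60 and 7.97 in control nerves at 2 months, and between 7.36 and 7.68 in cKO and 6.98 and 7.32 in control nerves at P10. *Aif1*, which encodes the macrophage protein IBA1, had a log2 change of 2.92 at 2 months (adjusted p = 1.6e-09) and 0.41 at P10 (adjusted p = 0.27), and *C1qc*, a subunit of complement C1q, of 1.81 (adjusted p = 8.5e-09) and 0.26 (adjusted p = 0.31). Apart stood *Cd163*, a receptor of resident macrophages, which fell at 2 months (log2 change -1.84), and *Mertk*, a receptor for apoptotic cells, which rose at both ages (1.55 at 2 months and 1.40 at P10). *Fabp5* rose by more than the list: *Fabp5* minus the list mean was 0.68 ± 0.22 in cKO and -0.59 ± 0.65 in control nerves at 2 months, whereas it was 0.43 ± 0.36 in cKO and 0.47 ± 0.20 in control nerves at P10. Within the control arrays at 2 months *Fabp5* ran from 6.44 to 8.04 while the macrophage mean ran only from 7.60 to 7.97. With age in control nerves *Fabp5* did not follow the list. From P10 to 2 months 11 of the 15 genes were called higher and 1 lower there (median log2 change 0.57), where 13.8% of all genes were higher and 15.2% lower. The change of *Fabp5* was -0.46 (adjusted p = 0.163). In cKO nerves 14 of the 15 were higher at 2 months than at P10, where 16.1% of all genes were, and *Fabp5* was higher too (1.90). The part of macrophages in the *Fabp5* difference was not tested.

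*Fabp4*, the adipocyte FABP also known as aP2, fell at both ages. At 2 months its values were 8.08, 9.14, 8.05 and 9.23 in cKO nerves, against 8.66, 9.95, 10.26 and 11.19 in control nerves. The groups overlapped, since control replicate 1 lay below cKO replicates 2 and 4, and the spread within each group was wide (8.63 ± 0.65 and 10.01 ± 1.05). The log2 change was -1.39 (SE 0.40, adjusted p = 0.0149), a 2.61-fold decrease, and the call ended without cKO replicate 1 (-1.20, adjusted p = 0.0522) or cKO replicate 3 (-1.19, adjusted p = 0.0563). At P10 the values were 8.74, 8.84, 8.91 and 9.03 in cKO nerves and 10.92, 10.16, 9.66 and 10.84 in control nerves. Here the cKO arrays were tight and lay below all control arrays, and the log2 change was -1.52 (SE 0.22, adjusted p = 0.000248). The changes at the 2 ages differed by 0.13 (SE 0.53, adjusted p = 0.917).

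Adipocyte genes other than the members moved with *Fabp4*. Of 12 measured, 8 were called lower at 2 months and 10 at P10, none was higher at either age, and the median log2 changes were -1.19 and -1.23. Of all genes, 15.5% were called lower and 18.5% higher at 2 months, and 7.44% lower and 5.48% higher at P10. *Adipoq*, which encodes the adipocyte hormone adiponectin, fell at both ages (log2 change -1.51 at 2 months and -1.76 at P10), as did *Acvr1c*, a receptor of the activin family in fat (-1.90 and -1.13). The list mean was 6.69, 7.55, 6.60 and 7.55 in cKO nerves at 2 months, against 7.15, 8.20, 8.34 and 9.28 in control nerves, which is the order of arrays seen for *Fabp4* within each group, the means of cKO replicates 2 and 4 being equal. At P10 it lay between 6.63 and 6.88 in cKO and 7.58 and 8.27 in control nerves. *Fabp4* minus the list mean was 1.53 ± 0.14 in cKO and 1.77 ± 0.19 in control nerves at 2 months, and 2.16 ± 0.12 in cKO and 2.49 ± 0.35 in control nerves at P10, so most of the difference between the groups was shared with the list. Endothelial genes were lower as well, 6 of 14 at 2 months (median -0.28) and 11 of 14 at P10 (median -0.65, 10 genes without control P10 replicate 4), none being higher. They included *Tek*, the angiopoietin receptor of endothelium (log2 change -1.25 at 2 months and -0.73 at P10), and *Cldn5*, a tight junction protein (-1.04 and -1.02). *Fabp4* minus the endothelial mean was 1.97 ± 0.63 in cKO and 2.90 ± 0.87 in control nerves at 2 months, where the groups overlapped. At P10 it was 1.51 ± 0.16 in cKO and 2.38 ± 0.61 in control nerves, without overlap. *Fabp4* thus fell by more than the endothelial list at both ages. The part of adipocytes and endothelium in the *Fabp4* difference was not tested.

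*Cd36* was lower in every cKO array than in every control array of its age. At 2 months its values were 5.87, 7.03, 6.15 and 7.26 in cKO nerves, against 7.81, 8.58, 9.05 and 9.71 in control nerves. The means were 6.58 ± 0.67 and 8.79 ± 0.80, and the log2 change was -2.21 (SE 0.35, adjusted p = 0.000145), a 4.63-fold decrease. At P10 the values were 7.89, 7.70, 7.56 and 8.04 in cKO nerves and 8.97, 8.64, 8.45 and 9.29 in control nerves. The groups were closer than at 2 months, with a log2 change of -1.04 (SE 0.17, adjusted p = 0.000643). In the fits without 1 array this change ran from -1.17 to -0.89 and was called in each. The interaction was -1.17 (SE 0.44) and was not called (adjusted p = 0.0918), but it was called without cKO 2-month replicate 4 (-1.40, adjusted p = 0.0471) or without control 2-month replicate 1 (-1.50, adjusted p = 0.0147).

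Against the adipocyte list, *Cd36* behaved differently at the 2 ages. *Cd36* minus the list mean was -0.82, -0.53, -0.45 and -0.29 in cKO nerves at 2 months, against 0.65, 0.38, 0.71 and 0.43 in control nerves, so that *Cd36* lay lower relative to the list in every cKO array than in any control array. At P10 it was 1.07 ± 0.11 in cKO and 0.93 ± 0.28 in control nerves, and the groups overlapped. Against the endothelial list, *Cd36* minus the mean lay between -0.83 and 0.59 in cKO and 0.86 and 2.31 in control nerves at 2 months, and between 0.23 and 0.64 in cKO and 0.46 and 1.22 in control nerves at P10. These differences describe the arrays and were not tested.

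**Figure D2:**
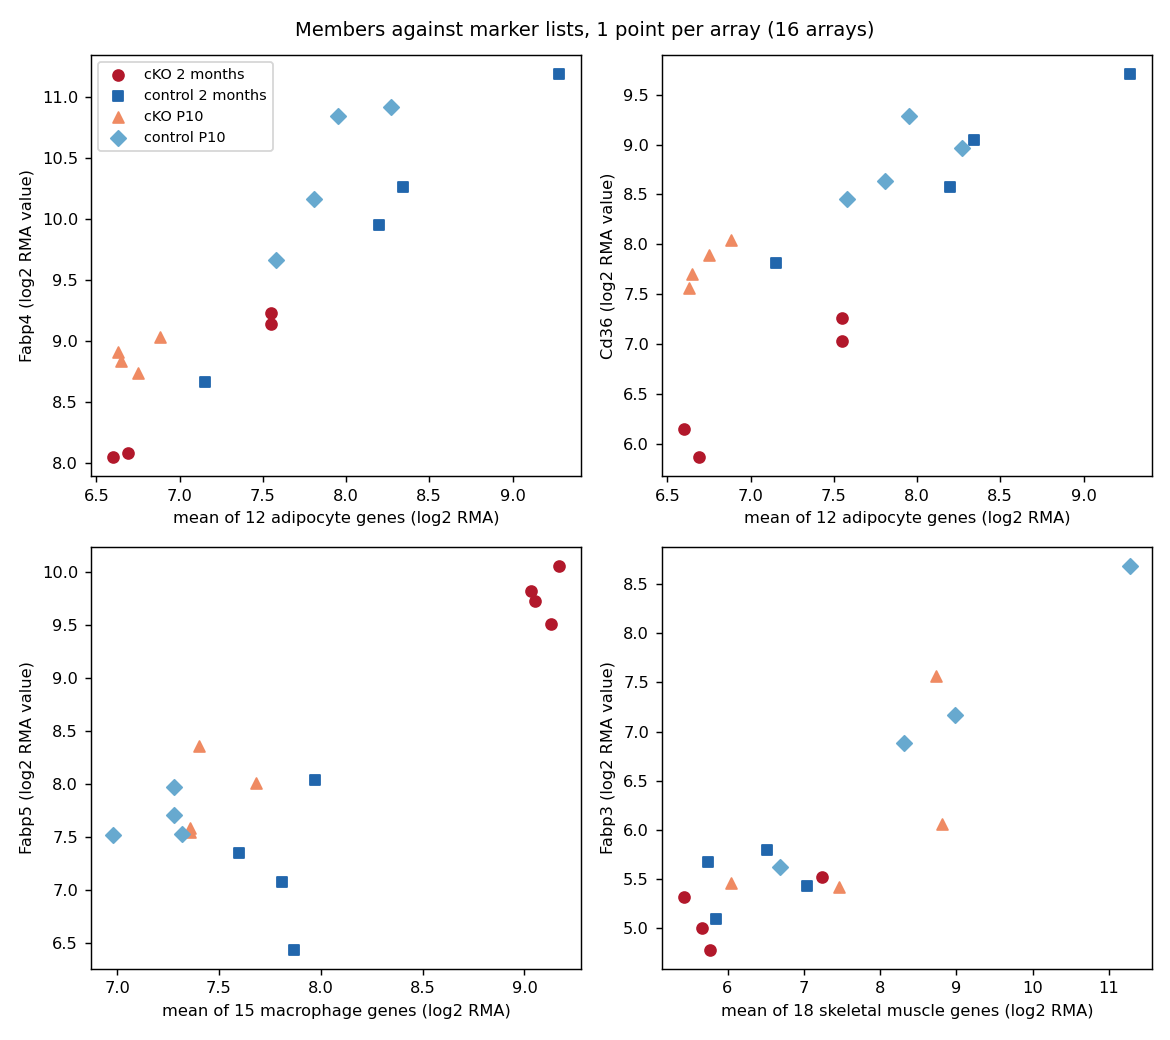
Each of 16 arrays as a point, with the mean of a marker list on the x axis and a member on the y axis, both as log2 RMA values. *Fabp4* lay along the mean of 12 adipocyte genes at 2 months. At P10 it lay further above that mean, and the cKO P10 arrays, close together, did not follow its order. *Cd36* of cKO nerves at 2 months (5.87 to 7.26) lay below the other arrays of like adipocyte mean. *Fabp5* and the macrophage mean were both highest in cKO nerves at 2 months, and *Fabp3* was highest in the control P10 array with the highest muscle mean (8.68). Among the cKO P10 arrays the order in *Fabp3* differed from that in the muscle mean.

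*Fabp3*, the FABP of heart and skeletal muscle, was not called between cKO and control nerves at either age. Its values at 2 months were 4.78, 5.52, 5.32 and 5.0 in cKO nerves, against 5.09, 5.43, 5.79 and 5.67 in control nerves, overlapping groups with a log2 change of -0.34 (SE 0.19, adjusted p = 0.188). The means at 2 months (5.16 and 5.49) lay close to 4.986, the 25th percentile of the mean level of all genes. A change could go unseen there. At P10 they were 5.42, 6.06, 5.46 and 7.56 in cKO nerves and 7.17, 5.62, 6.88 and 8.68 in control nerves. The spread within the P10 groups (SD 1.00 in cKO and 1.26 in control) was as large as the log2 change of -0.96 (SE 0.54, adjusted p = 0.314), which was -0.43 (adjusted p = 0.633) without control P10 replicate 4. The mean of 18 skeletal muscle genes was 7.46, 8.81, 6.04 and 8.74 in the cKO arrays at P10 and 8.98, 6.69, 8.31 and 11.28 in the control arrays. The control arrays at P10 had the same order in *Fabp3* as in the muscle mean. The cKO arrays at P10 did not: replicate 2, with the highest muscle mean (8.81), had a *Fabp3* of 6.06, and replicate 4 (8.74) had 7.56. At 2 months the muscle mean lay between 5.43 and 7.24 in cKO and 5.74 and 7.04 in control nerves, and in both groups the order of arrays differed from that of *Fabp3*. Among the 18 muscle genes, 1 was called lower at 2 months and none at P10, where 15.5% and 7.44% of all genes were called lower. The part of muscle RNA in the level of *Fabp3* was not tested.

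**Figure D3:**
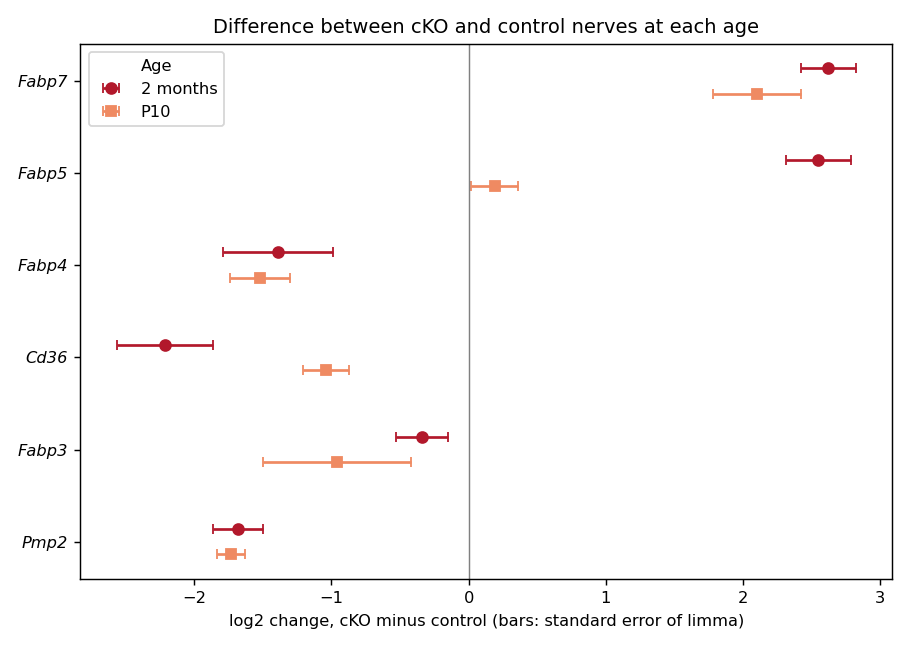
The log2 change of cKO minus control nerves at 2 months (circles) and at P10 (squares) for the 5 members and *Pmp2*, with the standard error of limma from 4 arrays per group. *Fabp7* lay to the right at both ages (2.62 and 2.10), *Fabp5* only at 2 months (2.55 against 0.19), and *Fabp4*, *Cd36* and *Pmp2* lay to the left at both.

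Of the other intracellular lipid binding proteins, 10 of the 12 listed were measured, namely *Fabp1*, *Fabp2*, *Fabp6*, *Fabp9*, *Fabp12*, *Pmp2*, the retinoic acid carriers *Crabp1* and *Crabp2* and the retinol carriers *Rbp2* and *Rbp7*. Only *Pmp2* was called, lower at both ages. Its values at 2 months were 9.55, 8.60, 9.18 and 9.08 in cKO nerves, against 11.11, 10.62, 10.96 and 10.45 in control nerves, and at P10 they were 10.10, 10.11, 10.05 and 9.96 in cKO nerves, against 11.73, 11.91, 11.89 and 11.62 in control nerves. No cKO array overlapped a control array of its age, with log2 changes of -1.68 (SE 0.18, adjusted p = 2.97e-06) at 2 months and -1.73 (SE 0.10, adjusted p = 7.24e-08) at P10. In the same direction, 11 of 12 genes of the myelinating Schwann cell were lower at 2 months and 12 of 12 at P10. The shares of all genes called lower were 15.5% at 2 months and 7.44% at P10. The other 9 relatives were not called at either age, and the median of the list was 0.00 at 2 months and -0.05 at P10. Among these 9, *Fabp1*, *Fabp6*, *Fabp9* and *Fabp12* were dim, with group means between 2.91 and 3.56. All lay below 4.986, the level used in the filter on dim genes. In such genes a change could go unseen, so the lack of a call does not show that they were unchanged.

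Several of these genes are neighbours on mouse chromosome 3, where RefSeq orders *Fabp5*, *Gm33365*, *Gm9833*, *Pmp2*, *Fabp9*, *Fabp4* and *Fabp12*. Neighbours differed in direction at 2 months: *Fabp5* had a log2 change of 2.55, *Pmp2* of -1.68 and *Fabp4* of -1.39, while *Fabp9* and *Fabp12* between and beside them were not called. Both *Fabp9* and *Fabp12* were among the dim genes named above, in which a change could go unseen. The genes *Fabp3*, *Cd36* and *Fabp7* lie on chromosomes 4, 5 and 10.

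Between P10 and 2 months different members were called in cKO and in control nerves. In cKO nerves *Fabp5* was higher at 2 months than at P10 (log2 change 1.90, SE 0.24, adjusted p = 2.33e-06) and *Cd36* was lower (-1.22, SE 0.31, adjusted p = 0.00482), 2 of 5 genes called where 29.9% of all genes were (16.1% higher and 13.8% lower). The values were 0.60 for *Fabp7* (adjusted p = 0.143), -0.25 for *Fabp4* (adjusted p = 0.667) and -0.97 for *Fabp3* (adjusted p = 0.125), none of them called. In control nerves only *Fabp3* was called, lower at 2 months than at P10 (-1.59, SE 0.46, adjusted p = 0.0114), where 29.0% of all genes were called (13.8% higher and 15.2% lower). That decrease was -1.06 (adjusted p = 0.0467) without control P10 replicate 4, and 14 of the 18 muscle genes were lower at 2 months than at P10 in control nerves too. In control nerves *Fabp7* (0.09), *Cd36* (-0.05), *Fabp4* (-0.39) and *Fabp5* (-0.46) had adjusted p values between 0.163 and 0.935. Of the members, *Fabp3* was the only one whose difference with age was called in control nerves but not in cKO nerves, and its interaction was not called (0.63, SE 0.65, adjusted p = 0.606). *Fabp5* and *Cd36* were called with age in cKO nerves only. The interaction was called for *Fabp5* (2.35, adjusted p = 8.22e-05) but not for *Cd36* (-1.17, SE 0.44, adjusted p = 0.0918).

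Ordered by group mean, *Fabp5* was highest in cKO nerves at 2 months, and its other 3 groups, cKO P10, control P10 and control 2 months, overlapped each with the next. *Fabp7* was high in both cKO groups, which overlapped, and low in both control groups, which overlapped as well. *Cd36* was highest in the control groups, overlapping at P10 and 2 months, followed by cKO P10, whose range overlapped that of control 2 months, and it was lowest, with a range of its own, in cKO nerves at 2 months. For *Fabp4* and *Fabp3* every group overlapped with the next in the order.

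The genes most like each member over the 16 arrays were found by the root mean square (RMS) difference of log2 values, each gene centred on its mean, and are given as a description. For *Fabp4* they were *Plin1*, the perilipin that coats the lipid droplet of adipocytes (RMS difference 0.20), *Pck1*, which makes glycerol precursors in fat (0.20), and *Lgals12*, a galectin of adipocytes (0.37), whereas *Fabp4* itself had an SD of 0.95 over the arrays. For *Cd36* they were *Osr1*, a zinc finger transcription factor (0.38), *Lgals12* (0.40) and *Cdon*, a cell-surface co-receptor of Hedgehog signaling (0.41), and *Fabp4* came next at rank 4 (0.43). The log2 changes of *Osr1* were -1.90 at 2 months and -0.81 at P10 and those of *Cdon* -1.63 and -0.67, all called, with the larger value at 2 months as for *Cd36*. For *Cdon* the interaction was called (-0.96, adjusted p = 0.0137).

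For *Fabp5* the nearest genes were *Trem2*, a lipid-sensing receptor of macrophages (RMS difference 0.37), *Cd300c2*, a receptor of myeloid cells (0.40), and *Cx3cr1*, the fractalkine receptor (0.40). Their log2 changes were 1.94, 2.01 and 2.48 at 2 months, all called, and 0.17, 0.30 and 0.46 at P10, none of them called. For *Fabp7* they were *Nwd1* (0.38), *Renbp*, an epimerase of amino sugars (0.44), and *Dpp7*, a lysosomal dipeptidase (0.44), which rose at both ages: *Nwd1* by 2.62 at 2 months and 2.28 at P10, *Renbp* by 2.27 and 1.84, and *Dpp7* by 2.15 and 1.28. For *Fabp3* they were *Tpm2*, a tropomyosin (0.37), *Myh3*, the embryonic myosin heavy chain (0.38), and *Ldb3*, a protein of the muscle Z-disc (0.38). *Fabp5* and *Fabp7* were less alike than these pairs, with an RMS difference of 0.79, and *Fabp7* and *Cd36* were the most unlike pair of members (2.22).

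The genes around the members in fatty acid uptake and activation gave no common direction. Of 19 measured, 8 rose and 6 fell at 2 months, where 34.0% of all genes were called. At P10 3 rose and 4 fell, where 12.9% of all genes were called. The medians of the list were 0.04 and 0.02. Among those that rose were the acyl-CoA synthetases *Acsl5* (log2 change 1.13 at 2 months and 0.48 at P10) and *Acsbg1* (1.01 and 0.69) and the transporter *Slc27a1* (0.49 and 0.63). Among those that fell were *Lpl*, the lipoprotein lipase (-0.89 and -1.07), *Angptl4*, an inhibitor of that lipase (-1.36 and -0.61), *Cav1*, the caveolin that supports CD36 at the membrane (-0.89 at both ages), and *Mfsd2a*, a transporter of lysophosphatidylcholine in endothelium (-0.55 and -1.19). The list was not chosen by how its genes moved, but with earlier results of these arrays known.

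In lipid droplet storage and lipolysis, 3 of 21 genes rose and 5 fell at 2 months, and 1 rose and 10 fell at P10 (2 and 10 without control P10 replicate 4), with a median of -0.54 at P10 against 0.00 over all genes. Those that fell included *Cidec*, a droplet protein of adipocytes (-1.23 at 2 months and -0.95 at P10), and *Plin1* (-1.28 and -1.32), both also in the adipocyte list. *Lpin1*, a phosphatidate phosphatase, rose at both ages (1.28 and 1.26), and *Plin2*, the droplet protein of most other cells, rose at 2 months (0.60, adjusted p = 0.00033) with a value of 0.14 at P10 (adjusted p = 0.58). In fatty acid oxidation 4 of 22 genes rose and 5 fell at 2 months, and none rose and 5 fell at P10, or 2 without control P10 replicate 4. Beside the counts of both lists, 34.0% of all genes were called at 2 months (18.5% higher and 15.5% lower). At P10 the share was 12.9% (5.48% higher and 7.44% lower). The mean of the oxidation list at P10 lay between 8.25 and 8.34 in cKO nerves and was 8.71, 8.32, 8.28 and 8.83 in control nerves, where replicates 1 and 4 also had the highest muscle means (8.98 and 11.28). The part of muscle RNA was not tested. Among the oxidation genes *Acadl*, the long-chain acyl-CoA dehydrogenase, rose by 0.55 at 2 months (adjusted p = 0.00073), and *Acads*, its short-chain relative, fell at both ages (-0.34 and -0.60).

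Of 16 listed nuclear receptors to which FABPs deliver ligands, and their partners, 12 were measured. *Ppard* was among the listed genes that were not matched. Of the 12, 1 was higher and 3 were lower at 2 months, and 2 were higher and 2 lower at P10, where 34.0% and 12.9% of all genes were called. *Pparg*, the adipocyte regulator that controls *Fabp4* and *Cd36* in fat, had a log2 change of -0.92 at 2 months (adjusted p = 0.088) and was lower at P10 (-1.32, adjusted p = 0.0024). *Rxrg*, a retinoid X receptor of Schwann cells and muscle, fell at both ages (-1.75 at 2 months and -1.06 at P10), and *Ppargc1a*, a coactivator of mitochondrial genes, rose by 0.95 and 1.27.

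Of 18 scavenger receptors, ligands and partners of CD36, 7 were higher and 3 lower at 2 months, when 18.5% of all genes were higher and 15.5% lower. None was higher and 4 were lower at P10 (5 lower without control P10 replicate 4), when 5.48% of all genes were higher and 7.44% lower. The macrophage list moved alongside, with 12 of 15 genes higher at 2 months and 1 at P10, and means of 9.09 ± 0.07 in cKO and 7.81 ± 0.15 in control nerves at 2 months, and its part was not tested. *Tlr2*, a toll-like receptor that acts with CD36, had a log2 change of 2.04 at 2 months (adjusted p = 3.3e-09) and -0.22 at P10 (adjusted p = 0.29). *Cxcl16*, a chemokine that binds oxidized lipoprotein, had changes of 1.80 (adjusted p = 4.5e-08) and -0.04 (adjusted p = 0.9), and *Thbs2*, a thrombospondin and ligand of CD36, of 1.32 (adjusted p = 4.5e-07) and -0.21 (adjusted p = 0.28). These 3 genes rose at 2 months, where *Cd36* fell. *Scara5*, a ferritin receptor of stromal cells, fell at both ages (-1.41 at 2 months and -1.03 at P10), as did *Cd9*, a tetraspanin that associates with CD36 (-0.36 and -1.43).

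**Figure D4:**
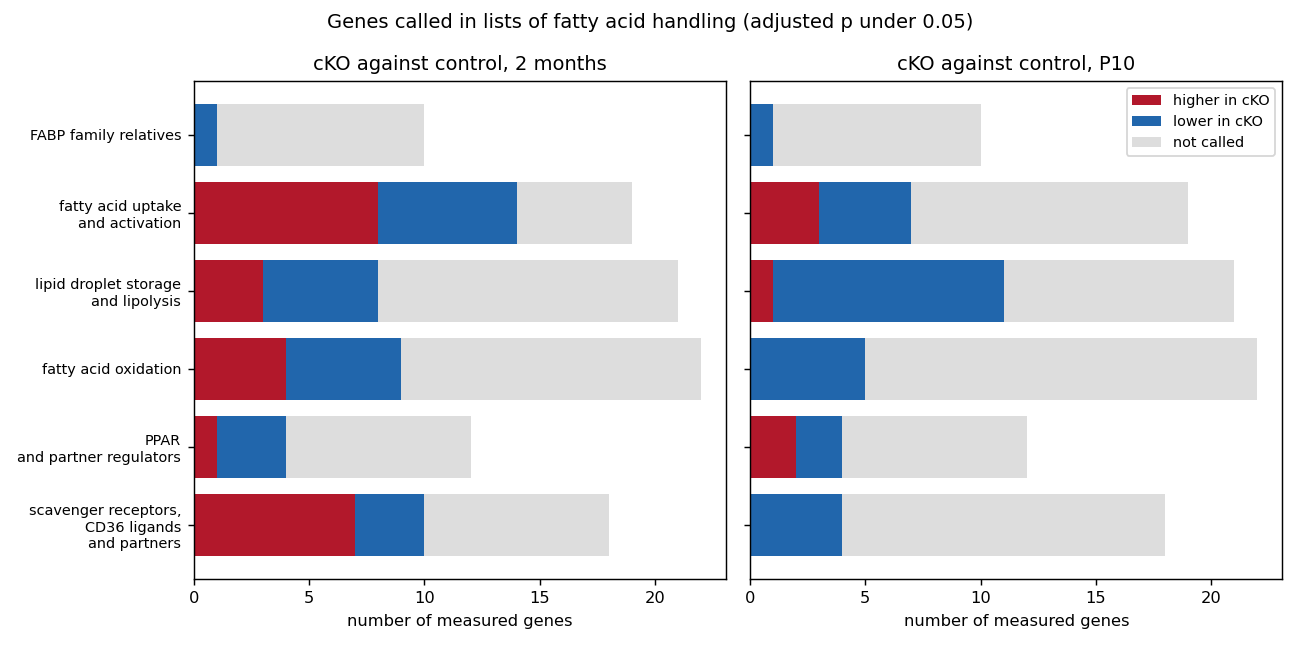
The number of measured genes called higher (red), called lower (blue) or not called (grey) in cKO against control nerves, for 6 lists around the members, at 2 months (left) and at P10 (right). In the list of scavenger receptors and CD36 partners 7 of 18 genes were higher at 2 months and none at P10, and in lipid droplet storage and lipolysis 10 of 21 genes were lower at P10. Of all genes, 18.5% were higher at 2 months, and 5.48% were higher and 7.44% lower at P10.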

How the data were processed

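The authors hybridized sciatic nerve RNA to Clariom S mouse arrays and processed the array scans in Transcriptome Analysis Console with RMA (robust multiarray averaging). The deposited log2 values of 22206 transcript clusters in 16 arrays (4 per group) were used as given. The scans were not used here, which leaves background signal unmeasured, and precision is limited by the 4 arrays of a group. The genome build of the arrays is not given in the sources used here. Of the clusters, 19572 carry a symbol, which gave 19505 genes, each on its cluster with the highest mean.

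cKO and control nerves were compared at each age on 8 arrays, and the interaction (cKO minus control at 2 months, less the same at P10) and the ages on 16 arrays with 4 group means, with lmFit and eBayes (intensity trend) of limma 3.58.1 in R 4.3.3, in place of the SAM test of the methods. The calling threshold was 0.05 on the p adjusted over all genes by Benjamini and Hochberg. On simulated data with 200 changed genes, 96% of changes of 1 on the log2 scale were recovered at 2 months, 94% at P10 and 70% for the interaction. Unchanged genes called numbered 14, 7 and 6. The simulation gave each gene the same SD in every group. These shares therefore cannot be carried over to members of wide spread within a group, such as *Fabp3* at P10. The members, the 15 gene lists and the tests were chosen with earlier results of these data known. Of 231 listed genes, 212 were matched by symbol, and 19 were not analysed here. Named were *Becn1*, the members, measured FABP relatives, of each list the 4 genes of smallest adjusted p at each age, and 3 genes most like each member. *Cd163* was named after its values were seen. Arrays correlated at 0.9756 to 0.9943 within groups and 0.9334 to 0.9779 between groups, and none were identical.

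Alternatives were the 5000 most variable clusters, a filter on dim genes (below the 25th percentile of mean level), every cluster, centring, quantile normalization, array weights, no intensity trend, all 16 arrays (or 8 of a genotype) in the fit, the replicate number as a block, and leaving out each array.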

Additional observations from a re-analysis of the deposited data

Results flagged for a closer look

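Within groups, 4 of the 56 sets of 4 arrays checked held an array far from the other 3, where chance gives about 1 in 20. *Fabp7* was 4.85 in control P10 replicate 4, against 5.94 to 6.13 in the other 3. The same array had the lowest mean of the Schwann cell genes of any stage in its group (8.74, against 9.06 to 9.10) and the lowest macrophage mean (6.98, against 7.28 to 7.32), and it was the array highest in skeletal muscle genes. Among cKO P10 arrays, replicate 4 had the highest macrophage mean (7.68, against 7.36 to 7.40).

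The cKO effect differed between 2 months and P10 by the interaction test for 19 of the 73 genes named here. Of all genes, 12.3% had a called interaction. Many of the named genes were picked for a small adjusted p at an age or for likeness to a member, so these shares cannot be compared. Of the members *Fabp5* alone had a called interaction (2.35, adjusted p = 8.22e-05). The interaction was positive for the macrophage and myeloid genes *Aif1* (2.51), *Cx3cr1* (2.01), *Trem2* (1.77), *Cd300c2* (1.71) and *C1qc* (1.56). It was negative for the macrophage receptor *Cd163* (-1.53). Among the receptors, ligands and partners of CD36 it was positive for *Tlr2* (2.26), *Cxcl16* (1.84), *Thbs2* (1.53), *Cd9* (1.07) and *Scarb1* (0.74). For *Cd9* the decrease in cKO against control nerves was smaller at 2 months (-0.36) than at P10 (-1.43). *Scarb1* had a log2 change of 0.16 at 2 months, which was not called, and of -0.57 at P10. In fatty acid handling the interaction was 0.65 for *Acsl5*, 0.66 for *Acadvl* and -0.75 for *Angptl4*. It was 0.87 for *Dpp7* and -0.96 for *Cdon*, which resemble *Fabp7* and *Cd36* over the arrays. For the endothelial gene *Pecam1* it was 0.69. *Gpr37l1*, a receptor of glia, had an interaction of 1.65, with log2 changes of 0.92 at 2 months and -0.73 at P10, both called.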

How the results depend on the processing

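The calls of *Fabp5* and *Fabp7* at 2 months, of *Fabp4*, *Fabp7* and *Cd36* at P10, of *Cd36* at 2 months, of the *Fabp5* interaction, of *Fabp5* and *Cd36* with age in cKO nerves and of *Fabp3* with age in control nerves held under every alternative and without each array in turn. Testing only the 5000 most variable clusters gave 1865 genes higher and 1815 lower at 2 months (3600 and 3022 over all genes), 1844 higher and 1491 lower with age in cKO (3137 and 2698), and 1720 higher and 1618 lower with age in control nerves (2696 and 2961), fewer genes being tested. With array weights, the change of *Fabp7* with age in cKO nerves was called (0.84, adjusted p = 0.0122), and 3 uncalled values changed sign or reached zero: the *Fabp4* interaction (-0.00), and with age in control nerves *Fabp7* (-0.01) and *Cd36* (0.11). With only the 8 cKO arrays in the fit, *Fabp3* was called lower with age (-0.97, adjusted p = 0.0433). The cause was not tested.

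Deviations of same-numbered arrays correlated at 0.052 to 0.116 at 2 months, where 4 of 4 best matched their own number, and at -0.082 to 0.193 at P10, where 1 of 4 did. With 2 of 8 pairs over 0.1, the numbers were not taken to pair the samples, though the matches at 2 months are a hint from the data. With the replicate block, *Fabp3* at P10 (-0.96, adjusted p = 0.0486) and the *Cd36* interaction (-1.17, adjusted p = 0.00457) were called, both calls of *Becn1* ended, and no other call of a member changed.

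Without 1 array, *Fabp4* at 2 months ran from -1.84 to -0.99, with 6 of 8 fits called, the *Fabp4* interaction from -0.32 to 0.52, and the *Cd36* interaction from -1.50 to -0.86, with 2 of 16 fits called. With age in control nerves *Fabp4* ran from -0.78 to 0.07, *Fabp7* from -0.21 to 0.22, *Cd36* from -0.36 to 0.28 and *Fabp5* from -0.73 to -0.19, called only without control 2-month replicate 2 (adjusted p = 0.0119). *Trem2* at P10, not called, ran from -0.02, without control P10 replicate 4, to 0.26. Counts of genes called ran from 3151 to 3760 higher and 2545 to 2945 lower at 2 months and from 841 to 1014 higher and 1131 to 1532 lower at P10.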
